A study of Mus musculus with 8 samples.

Results

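The RNA of 5555-mEGFP cells, a mouse melanoma line that carries a green fluorescent protein, was compared between cells grown with fibroblasts and cells grown alone, both without drug. All 4 DMSO arrays of the series, which holds 8, were used, chosen by their titles. Co-culture here means the samples titled Mixed, in which the melanoma cells shared a dish with MAF2-mCherry fibroblasts, and mono-culture means 5555-mEGFP alone. Both groups received DMSO, the solvent, at 0.1% for 24 h, and 2 arrays, replicate 1 and replicate 2, were hybridised for each. The mEGFP-positive fraction was taken by FACS from the mixed dishes, and whether the mono-cultures also went through the sorter was not given in the sources used here. The other 4 arrays were the same cultures with PLX4720, an inhibitor of mutant BRAF, labelled at a dose of 1 mM, a unit that no other source used here gives and that may be an error of the label, and they shared the normalization and the estimate of the spread. The labels name 1 melanoma line and 1 fibroblast line, and nothing says whether the 2 arrays of a group came from separate cultures, so p-values measure the spread between arrays, which may be technical. The comparison asks which melanoma genes differed after contact with fibroblasts. It was read over 7357 genes, each detected on 2 or more of the 8 arrays. Of these, 185 were not detected on any DMSO array. Most room was given to the genes that were lower.

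Several of the genes that fell belong to programmes whose workings are well known. NRF2 is a transcription factor that is normally held by KEAP1 and destroyed, and that accumulates when reactive or electrophilic compounds modify KEAP1. It then binds antioxidant response elements as a pair with a small MAF protein and raises enzymes that make, load and recycle glutathione and that reduce quinones, aldehydes and peroxides. In melanoma, as in other tumours, the cystine importer that supplies glutathione synthesis is known to guard cells against lipid peroxidation. ATF4 is the factor of the amino acid and integrated stress response, and the circadian clock is a feedback loop whose output factor DBP is under direct control of the clock activators.

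Values are normalized intensities on a log2 scale, so a difference of 1 is a doubling, and a probe counted as detected where its p against the negative controls was under 0.01. Each array detected 9755 to 10021 of its 25697 probes, and the replicates correlated across genes at r = 0.992 in mono-culture and 0.995 in co-culture, against 0.985 to 0.989 between the cultures. The defining pigment genes were not detected, so the melanoma label rests on the name of the line. Of 9 melanocyte markers with a probe, 8 were not detected on any DMSO array, Mitf, Tyr, Tyrp1, Dct, Pmel and Mlana among them, and Gpnmb, a melanosomal glycoprotein, was high at 13.33 and 13.35 in mono-culture and 13.04 and 12.96 in co-culture. Of 12 fibroblast markers, 6 were not detected on any DMSO array, including Dcn, Lum, Thy1, Fap and Postn. The level of the 12, summed on the linear scale, was 1163 and 1386 in mono-culture and 737 and 709 in co-culture, and without Acta2 it was 712 and 715 against 631 and 605. Of 10 macrophage and leukocyte markers with a probe Cd14 alone was detected, at 6.91 and 7.21 in mono-culture and 7.39 and 7.63 in co-culture (adjusted p = 0.195), and Ptprc, the pan-leukocyte marker, was not. Of 9 endothelial markers Eng alone was detected, at 6.51 and 7.28 in mono-culture and 7.50 and 7.21 in co-culture, with overlapping groups, and Pecam1 and Cdh5 were not.

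In co-culture 76 genes were lower (1.03% of 7357) and 46 higher (0.625%) at an adjusted p under 0.05 by limma. Among the genes that fell were glutathione transferases, NAD(P)H quinone reductase and the cystine importer, enzymes of aldehyde and alcohol oxidation, proliferins, follistatin, a smooth muscle actin, basement membrane proteins, a lysosomal lipase and clock outputs. With genes not detected in co-culture set at their lower bounds, the median fall was 1.88-fold, 33 of 76 lay over 2-fold and 5 over 4-fold, and the fitted differences ran from -0.59 to -3.94 on the log2 scale. Over all genes tested, the 2 groups did not overlap in 23.9% with co-culture lower and in 25.2% with co-culture higher. All of the 76 are among the former, which their choice by p nearly fixes, so it adds no support. Of the genes that rose 15 were not detected in mono-culture, and with these at their bounds the median rise was 1.81-fold and 2 of 46 lay over 4-fold. The median over all genes was 0.01 on the log2 scale. Of the genes that fell, 20 were not detected on either co-culture array, so their folds are given as lower bounds against the lowest detected signal, and 51 were detected on all 4 arrays. Nefm, Prkcb, Nrcam, Prl2c1, Mcf2l and Cytip were detected only on the 2 mono-culture arrays in DMSO. Acsbg1, Csn3, Prss22, Sdcbp2, Hipk2, Atg4d and Samd7 were detected only on the 2 co-culture arrays in DMSO. These genes entered the test only through the group in which they were high, so their calls are no independent support. The same holds for Gsta2, Clec4d and Rhag among the falls and for Ctcfl, Ctsw and Dapk2 among the rises. Each of them was detected on 3 of the 8 arrays, 2 of these in its higher DMSO group, and 2 arrays were needed to enter the test. Because the arrays measure RNA in bulk, fewer cells expressing a gene and less RNA per cell cannot be told apart. The calls depended on both co-culture arrays. Without replicate 1 of the co-culture 10 genes passed as lower and 7 as higher, and without replicate 2 of it 10 and 8. With the probes of a gene averaged in place of the brightest one, Acta2, Blnk, Col3a1, Gstm1, Ikbkg, Kcnab1, Mcu, Napepld, Pde1a, Ramp3, Sox21, Srxn1 and Ugt1a6a no longer passed as lower and Fam193b and Smtn as higher.

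**Figure D1:**
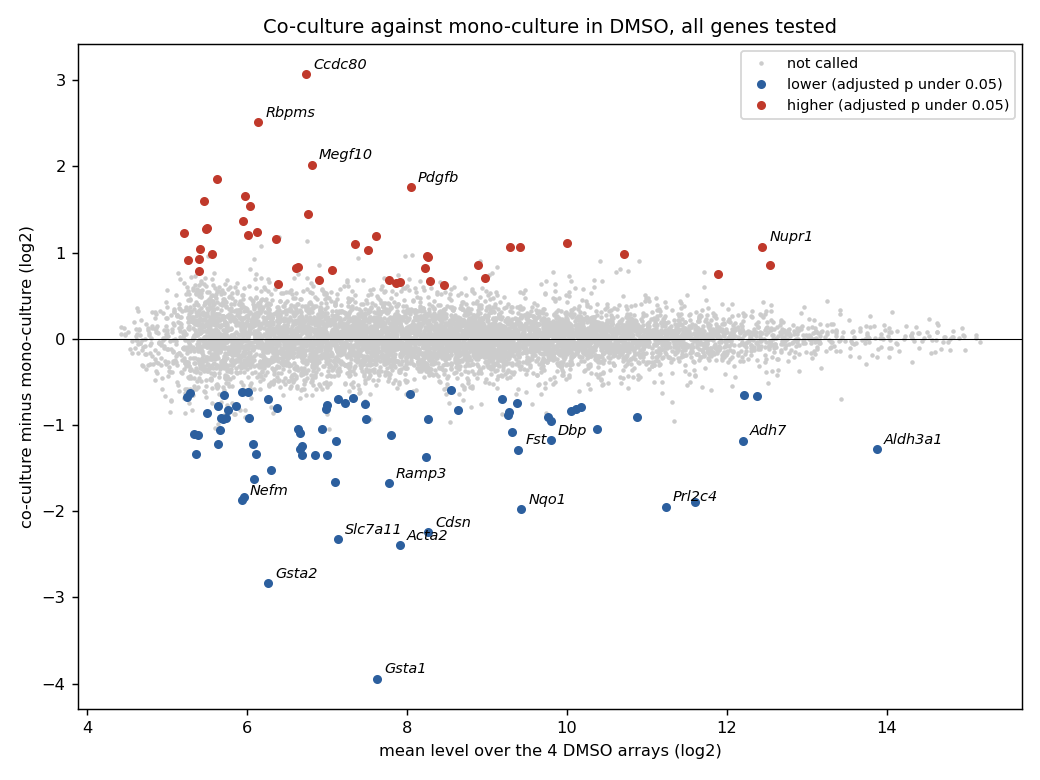
Each point is 1 of 7357 genes, placed by its mean normalized level over the 4 DMSO arrays (x, log2) and by the co-culture minus mono-culture difference (y, log2), with 76 genes called lower in blue and 46 called higher in red. Gsta1, at a difference of -3.94, lies lowest, and Ccdc80, drawn at its fitted difference of 3.07 from a mono-culture level that was not detected, highest.

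The largest fall was that of Gsta1, an alpha-class glutathione transferase that conjugates glutathione to electrophiles. Its levels were 10.17 and 9.02 in mono-culture and 5.57 and 5.74 in co-culture. It fell by 3.94 ± 0.45 on the log2 scale (SE, n = 2 arrays per group), or 15.4-fold (adjusted p = 0.00416), and was detected on 1 of the 2 co-culture arrays. Gsta2, its close paralog, was at 8.31 and 7.04 in mono-culture and 4.90 and 4.78 in co-culture, where it was not detected, a fall of at least 4.31-fold (adjusted p = 0.00673). Gsta2 passed the detection filter only through the mono-culture arrays in DMSO, so its call is no independent support. In both genes replicate 1 of the mono-culture stood more than 1 log2 unit above replicate 2, and both co-culture arrays lay far below either. The sequences of these paralogs are similar, and whether their probes tell them apart was not tested.

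Slc7a11, which encodes the cystine and glutamate exchanger xCT, was at 8.59 and 8.0 in mono-culture and 5.95 and 5.99 in co-culture. It fell by 2.32 ± 0.20, or 5.01-fold (adjusted p = 0.00143), and the co-culture arrays differed from each other by far less than the mono-culture arrays did. Nqo1, the quinone reductase most used as a readout of NRF2, was at 10.72 and 10.10 in mono-culture and 8.46 and 8.42 in co-culture. That is a 3.93-fold fall (log2 -1.98, SE 0.23, adjusted p = 0.00446) and replicate 1 was again the higher array of the mono-culture. Cbr3, a carbonyl reductase, fell 2.55-fold from 7.94 and 7.39 to 6.30 and 6.34. Srxn1, sulfiredoxin, which repairs overoxidised peroxiredoxins, fell 1.79-fold from 10.60 and 10.35 to 9.63 and 9.64, and its 2 further probes gave differences of -0.74 and -0.67. Ephx1, the microsomal epoxide hydrolase, fell 1.88-fold from 11.34 and 11.32 to 10.51 and 10.33. Gstm1, a mu-class transferase, fell 1.88-fold from 10.32 and 10.13 to 9.20 and 9.42, but a second, dimmer probe of it gave a difference of 0.42, the only 1 of 29 further probes of the falling genes with the opposite sign.

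Of a list of 32 NRF2 targets, 23 were measured, and these 8 fell while none rose, a share of 34.8% against the 1.03% of all genes called lower. The list, like the others, was drawn up with earlier results of these data known, so this share describes the list and is no independent support. Another 8 had an unadjusted p under 0.05 in the same direction without passing the adjustment, and 7.0% of all genes had one on that side. Among the 8 were Sqstm1, the autophagy receptor that binds KEAP1, at -0.51 (adjusted p = 0.0786), and Blvrb, a biliverdin reductase, at -0.96 (adjusted p = 0.0884). Gstp1 at -0.70 and Gclm, the modifier subunit of the first enzyme of glutathione synthesis, at -0.51 were others. The median over the 23 was -0.70, and 19 of them had groups that did not overlap with co-culture lower, which was so for 23.9% of all genes tested. Members of the list did not move as 1 block. Hmox1, heme oxygenase, was at 6.41 and 6.27 in mono-culture and 6.54 and 6.33 in co-culture, with overlapping groups. Prdx1, a peroxiredoxin, at 14.04 and 13.91 in mono-culture and 13.85 and 13.91 in co-culture, and Fth1, the ferritin heavy chain, at 15.09 and 14.98 in mono-culture and 14.90 and 14.92 in co-culture, stayed within 0.13 of 0 in their differences, and Cbr1 was slightly higher in co-culture (0.16, adjusted p = 0.709). The mono-culture arrays themselves differed in these genes. All 23 were higher on replicate 1 of the mono-culture than on replicate 2, against 46.6% of all genes tested, and the extent was largest in Gsta2, Gsta1 and Mgst1. Without replicate 1 of the mono-culture 4 of the list passed and the median was -0.51, without replicate 2 of it 8 passed at a median of -0.85, and without either co-culture array 3 passed.

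The promoter of Srxn1 is shown because it holds the letters that NRF2 and small MAF proteins are known to bind. The 250 bases before its start (RefSeq, GRCm38.p6, chr2:152105274-152105523, plus strand) are printed 5′ to 3′ with the match to TGANTCAGC in capitals.
Srxn1: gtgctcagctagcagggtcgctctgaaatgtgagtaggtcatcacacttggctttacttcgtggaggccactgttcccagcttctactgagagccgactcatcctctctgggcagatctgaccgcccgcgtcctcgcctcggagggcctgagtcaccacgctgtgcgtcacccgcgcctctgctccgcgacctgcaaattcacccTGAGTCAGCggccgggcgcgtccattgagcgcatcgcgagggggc
The match begins at -45 from the start, and its first 7 letters are also an AP-1 site. TGANTCAGC was searched after the values were known. In windows of 300 bases, from 250 before to 50 after each start, it was found on either strand in 1.37% of 27025 genes. It was in 1.43% of the 6068 tested genes with a window and in 4 of the 21 NRF2 list genes with one (19.0%). Falling and rising genes held it at similar shares, 2 of 61 with a window (3.28%) and 1 of 29 (3.45%). The looser core TGACNNNGC, the only motif planned beforehand, was in 14.0% of all genes and 16.8% of tested genes. It was in 14.8% of falling genes, 3.45% of rising genes and 19.0% of the NRF2 list. Of the 8 falling NRF2 genes only Srxn1 held either motif in this window, which says no more than that the letters were not found so close to the other starts.

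Enzymes that oxidise aldehydes and alcohols or that attach glucuronic acid fell at high and at low levels. Aldh3a1, an aldehyde dehydrogenase that clears lipid aldehydes, was among the brightest genes of the array set at 14.72 and 14.29 in mono-culture and 13.26 and 13.19 in co-culture, a 2.43-fold fall (log2 -1.28, SE 0.23, adjusted p = 0.0271). Adh7, a class IV alcohol dehydrogenase that also oxidises retinol, was at 12.94 and 12.64 in mono-culture and 11.67 and 11.54 in co-culture and fell 2.27-fold (adjusted p = 0.00446). For both, the mono-culture arrays lay more than 0.9 above the higher co-culture array. The glucuronosyltransferases Ugt1a10 and Ugt1a6a, 2 first-exon variants of 1 locus that share their other exons and whose probes may share transcripts, were at 7.82 and 7.22 in mono-culture and 6.08 and 6.25 in co-culture and at 6.95 and 6.41 in mono-culture and 5.55 and 5.36 in co-culture. The former fell 2.55-fold and the latter at least 2.16-fold. Of 17 measured aldehyde, retinoid and xenobiotic enzymes 3 fell (17.6%, against 1.03% of all genes), none rose, and the median was -0.18. Nnmt, nicotinamide N-methyltransferase, did not pass at -0.50 (adjusted p = 0.17), nor did Cbr2 at -0.79 (adjusted p = 0.252).

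Other lists of redox metabolism held 1 call. Among 21 measured enzymes of the glutathione and thioredoxin systems none passed, their differences ran from -0.65 to 0.41, and their median was -0.01. Of 11 genes of the pentose phosphate path and NADPH supply only Aldh1l2 passed (9.09%, against 1.03% of all genes called lower). Me1, malic enzyme, was at -0.38 (adjusted p = 0.225), Taldo1, transaldolase, at -0.24 and Tkt, transketolase, at 0.21. Aldh1l2, a mitochondrial folate enzyme that yields NADPH, was at 9.04 and 8.80 in mono-culture and 7.51 and 7.60 in co-culture, and fell 2.58-fold (log2 -1.37, SE 0.15, adjusted p = 0.00339). The arrays within each group were close to each other. It is 1 of 7 falling genes that passed whichever of the 4 DMSO arrays was left out, with Cdsn, Ddit4l, Gsta1, Mrgprf, Nqo1 and Slc7a11, while 34 of the 76 passed in none of these 4 settings.

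**Figure D2:**
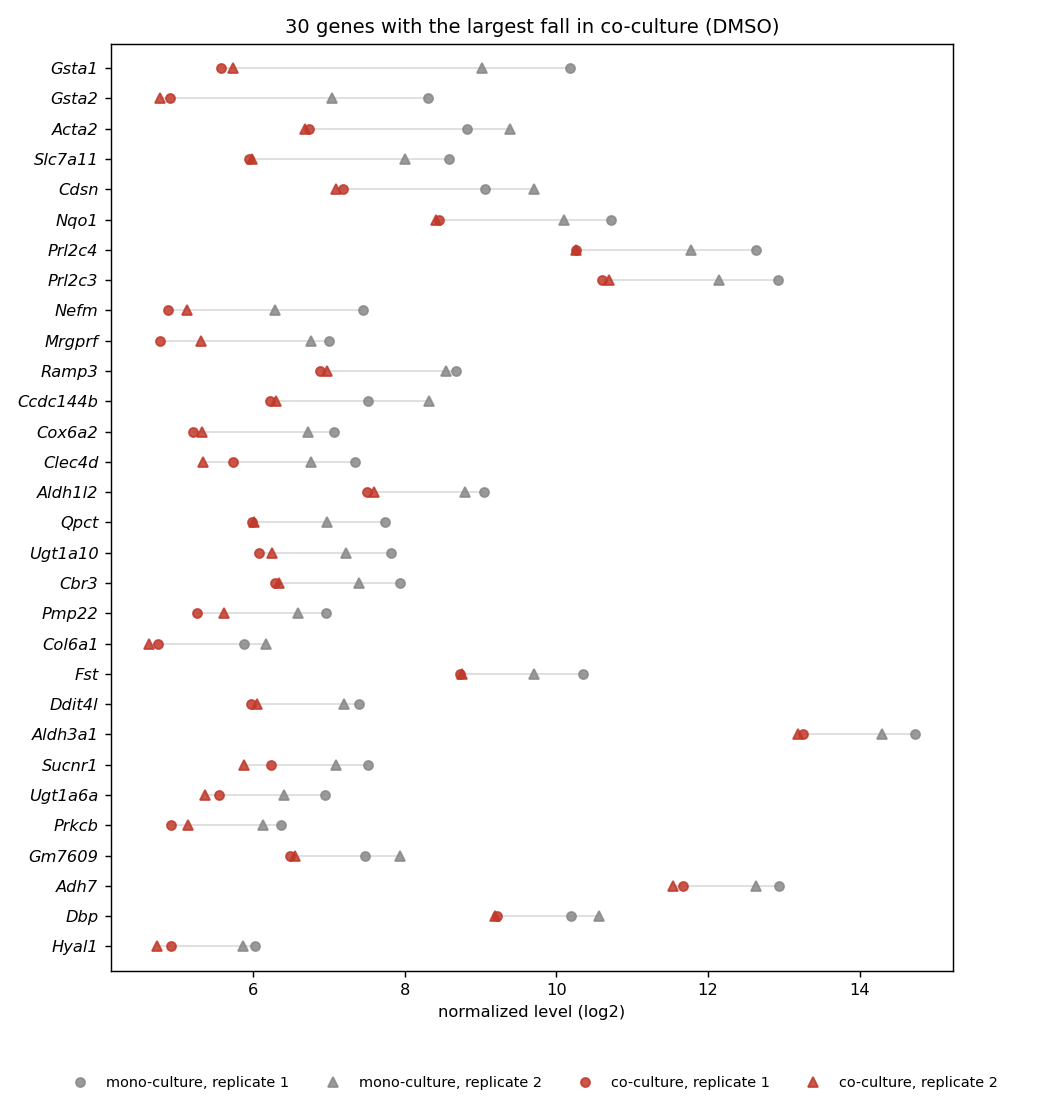
Each row is 1 of the 30 genes with the largest fall among those called, with the normalized level (x, log2) on the 2 mono-culture arrays in grey and the 2 co-culture arrays in red; circles are replicate 1 and triangles replicate 2. Both red marks lie left of both grey marks in every row because the selection required it. For Gsta1, Gsta2, Slc7a11, Nqo1 and the proliferins the grey circle lies right of the grey triangle, while for Acta2, Cdsn, Ccdc144b, Col6a1, Gm7609 and Dbp it lies left.

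Slc7a11 and Aldh1l2 are also targets of ATF4, and the measured genes of the ATF4 and amino acid list split in 2 directions. Vldlr, a lipoprotein receptor that ATF4 is known to raise, was at 10.27 and 10.28 in mono-culture and 9.35 and 9.30 in co-culture, and fell 1.93-fold (adjusted p = 0.0192). Its 3 further probes gave -0.58, -1.03 and -0.94 on the log2 scale. Nupr1, a small stress-induced chromatin protein and another ATF4 target, went the other way at 12.09 and 11.72 in mono-culture and 12.93 and 13.01 in co-culture, and rose 2.10-fold (adjusted p = 0.00673). Of 27 genes of the list 3 fell (11.1%) and 1 rose, against 1.03% and 0.625% of all genes, and the median was -0.19. Psat1, a serine synthesis enzyme, was at -0.55 (adjusted p = 0.0786), Atf5 at -0.51 (adjusted p = 0.0902) and Asns, asparagine synthetase, at -0.41 (adjusted p = 0.162), all with co-culture below mono-culture and none past the threshold. Cth, cystathionine gamma-lyase, which makes cysteine inside the cell, was at 0.51 (adjusted p = 0.142). Ddit4l, a stress-responsive relative of the mTORC1 inhibitor REDD1 that was not on the list, fell 2.43-fold from 7.40 and 7.20 to 5.98 and 6.06.

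The promoters of Slc7a11, Vldlr and Nupr1 are shown because all hold the core of the C/EBP-ATF response element through which ATF4 is known to act, in 2 genes that fell and 1 that rose. Each run is the 250 bases before the start from RefSeq, GRCm38.p6, read 5′ to 3′ on the strand of the gene, with matches to TGATGNAA on either strand in capitals. They lie at chr3:50443614-50443863 (minus strand), chr19:27216770-27217019 (plus strand, 1 of the gene's windows) and chr7:126625471-126625720 (minus strand).
Slc7a11: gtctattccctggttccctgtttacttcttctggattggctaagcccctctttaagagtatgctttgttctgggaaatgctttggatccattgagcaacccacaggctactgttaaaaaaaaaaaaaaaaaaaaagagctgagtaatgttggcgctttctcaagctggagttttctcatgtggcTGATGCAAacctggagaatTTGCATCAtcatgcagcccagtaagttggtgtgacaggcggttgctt
Vldlr: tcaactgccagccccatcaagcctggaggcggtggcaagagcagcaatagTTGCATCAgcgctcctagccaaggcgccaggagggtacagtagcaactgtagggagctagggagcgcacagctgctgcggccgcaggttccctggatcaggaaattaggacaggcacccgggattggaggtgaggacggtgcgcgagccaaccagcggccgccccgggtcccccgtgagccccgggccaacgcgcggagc
Nupr1: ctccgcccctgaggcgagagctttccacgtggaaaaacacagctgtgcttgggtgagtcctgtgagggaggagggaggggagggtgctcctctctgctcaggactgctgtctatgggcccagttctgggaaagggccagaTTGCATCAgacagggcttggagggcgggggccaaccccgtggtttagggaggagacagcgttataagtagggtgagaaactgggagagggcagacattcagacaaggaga
Slc7a11 holds 2 copies that face each other, beginning at -66 and -47, Vldlr 1 at -200 and Nupr1 1 at -110. TGATGNAA, searched after the values were known and holding neither motif above in its letters, was in the 300-base window of 4.51% of 27025 genes, 2.72% of tested genes, 5 of 61 falling genes (8.20%), 1 of 29 rising genes (3.45%) and 8 of 22 ATF4 list genes (36.4%). The others that fell and hold it were Ecm1, Kcnab1 and Mcf2l. A match is a description of the letters and not of a bound site.

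Several secreted proteins were among the falls, grouped here after their values were seen. Prl2c4 and Prl2c3, proliferins of the prolactin family that were first found in growing mouse fibroblasts, were at 12.64 and 11.78 in mono-culture and 10.25 and 10.26 in co-culture and at 12.93 and 12.15 in mono-culture and 10.61 and 10.69 in co-culture. The former fell 3.86-fold and the latter 3.71-fold (adjusted p = 0.00673 for both). Prl2c1, a dimmer relative, fell at least 1.25-fold from 6.07 and 5.72. The proliferin genes are nearly identical, so these probes may report the same RNA and are not independent. Fst, follistatin, which binds activins and some BMPs, was at 10.36 and 9.70 in mono-culture and 8.74 and 8.75 in co-culture, and fell 2.44-fold (log2 -1.28, SE 0.21, adjusted p = 0.0161). On its list of 26 TGF-beta and BMP genes Fst alone fell (3.85%, against 1.03% of all genes). Skil, a repressor of SMAD signalling, alone rose, against 0.625% of all genes. Bmp4 at -0.71 (adjusted p = 0.0604), Grem1, a BMP antagonist, at -0.57 (adjusted p = 0.0766) and Inhba, the activin A subunit, at 0.71 (adjusted p = 0.0895) did not pass.

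Kitl, the ligand of KIT, which melanocytes need to survive and migrate, was at 7.79 and 8.12 in mono-culture and 7.15 and 6.89 in co-culture, and fell 1.91-fold (adjusted p = 0.0161). Vegfd, a ligand of lymphatic growth, fell 1.61-fold from 7.65 and 7.70 to 7.0 and 6.97, whereas Vegfc, its relative, was at 0.58 (adjusted p = 0.0767). Igfbp6, which binds IGF-II, fell 1.76-fold from 10.60 and 10.43 to 9.69 and 9.71. It was the only 1 of 5 genes on the IGF binding protein list that passed (20%, against 1.03% of all genes called lower). Igfbp7 had a larger difference, -1.05, with a wider spread (SE 0.29, adjusted p = 0.124), and Igfbp4 was at 0.51 (adjusted p = 0.302). Qpct, glutaminyl cyclase, which forms the blocked ends of secreted peptides, fell 2.56-fold from 7.74 and 6.97 to 5.99 and 6.02. Of 21 ligands and receptors of the PDGF, FGF, HGF and IGF families Kitl fell (4.76%, against 1.03% of all genes). Pdgfb was the 1 that rose, against 0.625% of all genes.

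Among structural genes, Acta2, the smooth muscle actin used to mark myofibroblasts, was at 8.82 and 9.39 in mono-culture and 6.74 and 6.69 in co-culture. It fell by 2.39 ± 0.34 on the log2 scale, 5.25-fold (adjusted p = 0.00775), and 3 further probes of it gave differences from -0.65 to -1.33. With its probes averaged the difference was -1.39 (adjusted p = 0.138). Of 25 contractile genes Acta2 alone fell (4%, against 1.03% of all genes). Smtn, smoothelin, alone rose (8.04 and 8.25 in mono-culture and 8.85 and 8.70 in co-culture), against 0.625% of all genes. Of the 25, 19 had a difference above 0, against 51.9% of all genes tested, and the median was 0.19. Cdsn, corneodesmosin, an adhesive protein known from the outer epidermis, was at 9.07 and 9.71 in mono-culture and 7.19 and 7.09 in co-culture, a 4.75-fold fall (adjusted p = 0.00254). For Acta2 and Cdsn replicate 2 of the mono-culture was the higher one, the reverse of the order in the NRF2 list. Nid1, nidogen, a linker of basement membranes, fell 2.11-fold from 10.0 and 9.69 to 8.73 and 8.80. Ecm1, an extracellular glycoprotein of skin, fell 2.07-fold from 10.88 and 10.92 to 9.88 and 9.81.

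Col6a1 was near the floor in co-culture at 4.75 and 4.64 after 5.88 and 6.18, a fall of at least 1.37-fold. Col3a1 fell 1.53-fold from 6.35 and 6.29 to 5.62 and 5.79, and was detected on 1 of the 2 co-culture arrays. The Col3a1 call was kept in only 2 of 12 alternatives other than leaving out single arrays. Its second probe, not detected on any DMSO array, gave a difference of -0.16. Col3a1 and Acta2 are among the 12 fibroblast markers whose sums above were lower in co-culture as well. Col6a1 is not among those, but all 3 are on a wider list of fibroblast markers. Of its 15 measured genes these 3 fell (20%, against 1.03% of all genes), none rose, and 5 had a difference above 0. The part of other cells in these falls was not tested. Of 17 collagen and basement membrane genes 3 fell (17.6%, against 1.03% of all genes) and none rose, with a median of -0.16. Hyal1, a hyaluronidase, fell at least 1.30-fold from 6.02 and 5.87, and Adamtsl4, which binds fibrillin microfibrils, fell 2.06-fold from 7.42 and 7.50 to 6.33 and 6.51. By contrast Mfap2, a microfibril glycoprotein, Ccdc80, a matrix-bound protein, and Tgm2, a transglutaminase, rose. Of 23 matrix glycoproteins and crosslinkers 3 rose and 1 fell, against 0.625% and 1.03% of all genes. Integrins also split. Itgb7 fell 1.68-fold from 9.77 and 9.72 to 9.07 and 8.93, and Itgb5, a vitronectin receptor chain, rose 1.98-fold from 10.06 and 10.39 to 11.15 and 11.27. Cav1, caveolin, fell 1.57-fold at a high level, 12.58 and 12.50 in mono-culture and 11.81 and 11.97 in co-culture.

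Receptors and signalling proteins made up another part of the falls, grouped here after their values were seen. Ramp3, which pairs with the calcitonin receptor-like receptor to bind adrenomedullin, was at 8.68 and 8.54 in mono-culture and 6.88 and 6.98 in co-culture. That is a 3.20-fold fall (log2 -1.68, SE 0.31, adjusted p = 0.0296), and 2 further probes gave -1.27 and -1.49. Mrgprf, an orphan receptor of the MAS family, was at 7.0 and 6.77 in mono-culture and 4.78 and 5.32 in co-culture, where it was not detected, a fall of at least 2.49-fold (adjusted p = 0.00288). Sucnr1, the succinate receptor, fell 2.38-fold from 7.52 and 7.10 to 6.24 and 5.88. Clec4d, a C-type lectin known from myeloid cells, fell 2.86-fold from 7.35 and 6.77 to 5.74 and 5.34. It was detected on 1 of the 2 co-culture arrays. Of the macrophage and leukocyte list Cd14 alone was detected. Prkcb, a protein kinase C, fell at least 1.61-fold, and Pde1a, a phosphodiesterase that calmodulin activates, at least 1.54-fold. Blnk, an adaptor of B cell receptor signalling, fell 1.77-fold. Ikbkg, the NEMO subunit of the IKK complex, showed the smallest fall of the 76, from 8.87 and 8.82 to 8.24 and 8.26 (1.51-fold). Its second probe, detected on all 4 DMSO arrays, gave a difference of -0.18.

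Genes known from neurons, glia or the neural crest were among them too. Nefm, a neurofilament subunit, was at 7.45 and 6.30 in mono-culture and 4.88 and 5.13 in co-culture. It fell at least 2.47-fold (adjusted p = 0.015), with its mono-culture arrays far apart, and was detected on those 2 arrays only. Pmp22, a myelin protein of Schwann cells, fell 2.53-fold from 6.96 and 6.59 to 5.27 and 5.62, and was detected on 1 of the 2 co-culture arrays. Flrt3, a repulsive guidance protein, fell 1.91-fold from 8.92 and 8.54 to 7.80 and 7.78, and Nrcam, a neuronal adhesion molecule, at least 1.47-fold. Sox21, a transcription factor of neural progenitors, fell 1.73-fold from 10.68 and 10.46 to 9.79 and 9.76. Of 13 genes on a list of neural crest and dedifferentiation markers none passed, and of 6 measured melanocyte lineage genes none passed.

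A lysosomal lipase and several genes of lipid handling fell. Lipa, lysosomal acid lipase, which frees cholesterol and fatty acids from lipoproteins, was at 7.28 and 7.04 in mono-culture and 6.01 and 6.23 in co-culture, and fell 2.06-fold (adjusted p = 0.0192). Of 39 measured lysosomal genes Lipa alone passed (2.56%, against 1.03% of all genes called lower). A difference below 0 was found in 31, against 48.1% of all genes tested, and 9 had an unadjusted p under 0.05 on that side (7.0% of all genes) against 1 on the other. The median was -0.19. Tpp1, a peptidase, lay just outside the threshold at -0.58 (adjusted p = 0.0524), followed by Gla, alpha-galactosidase, at -0.67 (adjusted p = 0.0604) and Grn, progranulin, at -0.59 (adjusted p = 0.0781). Ctsh, a cathepsin, had the opposite sign, 0.64 (adjusted p = 0.116). Outside the list, Slc46a3 and Slc17a5, transporters of the lysosomal membrane, fell from 5.91 and 6.15 to 5.35 and 5.15 and from 6.60 and 6.61 to 5.97 and 5.86. Napepld, which makes N-acylethanolamines, Slc27a1, a fatty acid carrier, and Apobr, a lipoprotein receptor of macrophages, fell to levels at which they were not detected, by at least 1.29-fold, 1.52-fold and 1.54-fold. A second probe of Napepld, detected on 2 DMSO arrays, gave a difference of only -0.01. The Napepld call was kept in 5 of 12 alternatives other than leaving out single arrays. Sterol synthesis genes did not follow, with 0 of 19 called and a median of -0.12, nor did 29 genes of fatty acid and lipid metabolism, with 0 called and a median of -0.01.

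A pair of clock genes fell and none rose. Dbp, the output factor that binds D-boxes, was at 10.20 and 10.56 in mono-culture and 9.22 and 9.19 in co-culture, and fell 2.26-fold (log2 -1.18, SE 0.18, adjusted p = 0.0137). Cry2, a repressor of the clock, fell at least 1.61-fold from 6.41 and 6.09 to 5.58 and 5.36. The Cry2 call was kept in only 5 of 12 alternatives other than leaving out single arrays. It was lost, among others, without background subtraction and with the 4 DMSO arrays alone. Next in p came 2 genes with the other sign that missed the threshold, Nfil3, the repressor that competes with DBP for D-boxes, at 8.86 and 8.56 in mono-culture and 9.57 and 9.50 in co-culture (adjusted p = 0.0514), and Arntl, the activator BMAL1, at 7.01 and 6.82 in mono-culture and 7.87 and 7.84 in co-culture (adjusted p = 0.0554). Per3 at -0.62 and Tef, a relative of DBP, at -0.49 lay below 0, and Bhlhe40 at 0.53 above. Of 15 genes 2 passed, both lower (13.3%, against 1.03% of all genes), and the median was -0.10. In each direction 4 had an unadjusted p under 0.05, against 7.0% of all genes on the lower side and 6.88% on the higher. The 4 DMSO arrays represent 1 time of collection as far as the labels say, and the hour was not given.

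In mitochondria the falls touched single genes. Cox6a2, the heart and muscle form of a cytochrome oxidase subunit, was at 7.07 and 6.72 in mono-culture and 5.20 and 5.33 in co-culture and fell at least 2.51-fold (adjusted p = 0.00775), and Mcu, the pore of the calcium uniporter, fell 1.63-fold from 7.35 and 7.62 to 6.75 and 6.81. None of 35 genes of complexes I and II and none of 33 of complexes III to V passed, with medians of -0.02 and 0.01, and 0 of 19 genes of the tricarboxylic acid cycle passed. Slc6a6, the taurine transporter, fell 1.58-fold at a high level, 12.80 and 12.60 in mono-culture and 12.01 and 12.08 in co-culture. On its list of 25 channels and transporters Slc6a6 alone fell (4%, against 1.03% of all genes). Slc30a1, a zinc exporter, alone rose, against 0.625% of all genes. An unadjusted p under 0.05 was found in 9 on the lower side (7.0% of all genes) and in 3 on the higher (6.88% of all genes). Aqp5 at -0.66 (adjusted p = 0.0588), Aqp1 at -0.48 (adjusted p = 0.0812), both water channels, and Slc6a9, a glycine transporter, at -0.58 (adjusted p = 0.0995) did not pass.

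**Figure D3:**
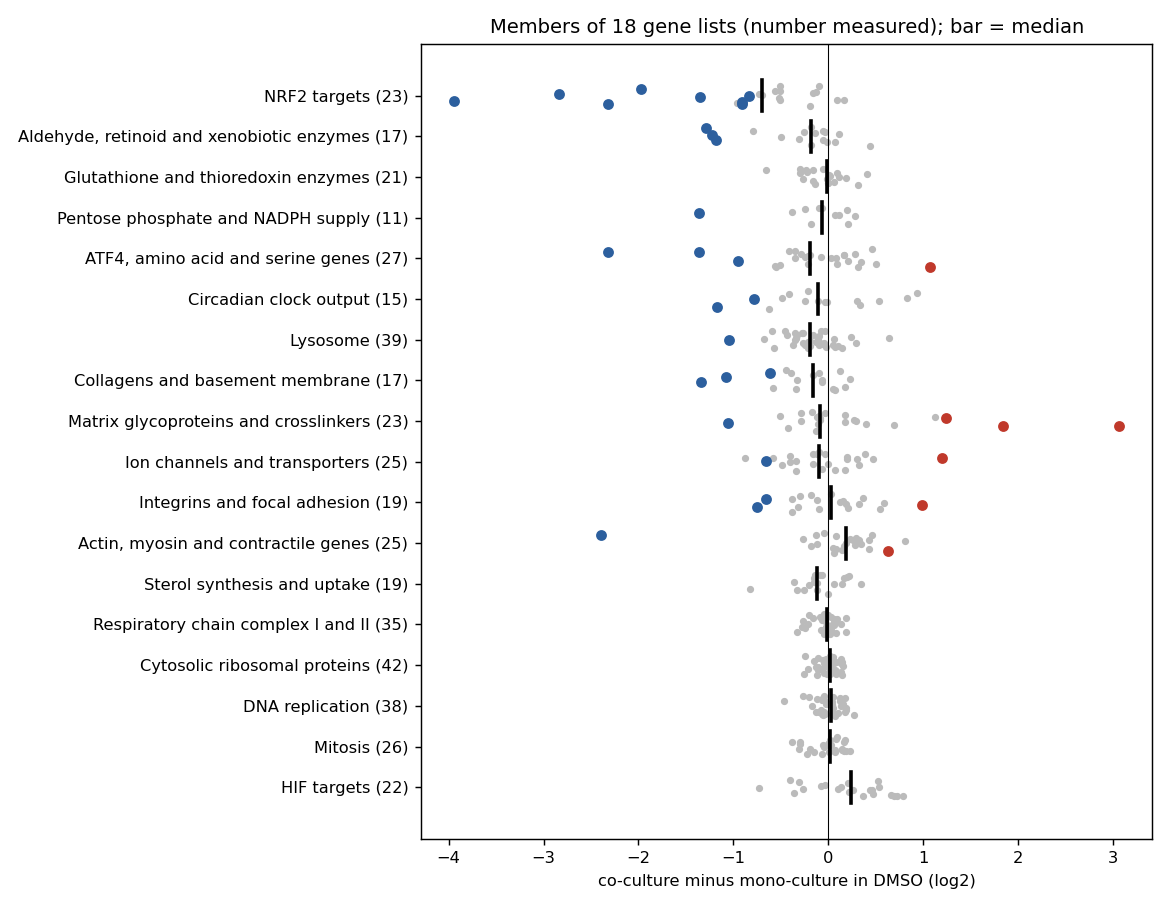
Each point is 1 measured gene of 18 gene lists (rows, with the number measured), placed by its co-culture minus mono-culture difference in DMSO (x, log2), and the black bar is the list's median; blue points were called lower and red points higher, and the vertical scatter within a row carries no value. The NRF2 list has 8 blue points and a median of -0.70, while the respiratory chain, ribosomal protein, replication and mitosis lists lie around 0 with none called.

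Growth and housekeeping lists did not hold a single call. Of 38 replication genes, 26 mitosis genes and 15 G1 cyclins and CDK inhibitors 0 passed, with medians of 0.03, 0.01 and -0.01. An unadjusted p under 0.05 was found in 1, 1 and 3 of them, against 7.0% of all genes on the lower side and 6.88% on the higher. Of 42 cytosolic ribosomal proteins and 31 genes of ribosome biogenesis 0 passed, with medians of 0.02 and 0.11. None passed among 18 p53 targets, 13 genes of the BCL2 family, 19 interferon-stimulated genes, 14 of MHC class I presentation, 22 heat shock chaperones, 20 genes of endoplasmic reticulum folding, 22 of autophagy and 24 of iron handling. In all, 32 of 55 lists held no called gene, and 28 of the 76 falling genes were on any list. A list without a call does not show that its genes stayed at the same level, since no gene with a difference between -0.59 and 0.63 on the log2 scale was called.

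The remaining falling genes are given by name only for completeness. They were Ccdc144b and Gm7609, with differences of -1.66 and -1.19, Tatdn2, Rab3d, Hnrnpul1, H3c7, Scara5, Pdzrn3, Dtna, Pid1, Kcnab1, Erich1, 1700088E04Rik, Mocs1, Mcf2l, Cytip, Fam171b, Rhag and Fam199x. Among those with a known role, Scara5 is a ferritin receptor, and went from 9.42 and 9.98 to 8.82 and 8.82. Rab3d, a GTPase of secretory granules, fell 2.14-fold. Mocs1 makes the molybdenum cofactor, and fell 1.63-fold. Rhag, an erythroid ammonium channel, and Mcf2l were not detected in co-culture and had bounds of 1.03-fold and 1.02-fold, close to no difference.

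The genes that rose were fewer, and 15 of the 46, Ccdc80 and Rbpms among them, were not detected in cells grown alone. Ccdc80 was at 5.20 and 5.21 in mono-culture and 8.37 and 8.18 in co-culture, a rise of at least 6.58-fold (adjusted p = 0.00244). Rbpms, an RNA-binding protein known as a splicing regulator of smooth muscle, was at 5.03 and 4.73 in mono-culture and 7.33 and 7.46 in co-culture, at least 3.59-fold higher (adjusted p = 0.000129). Megf10, an engulfment receptor of astrocytes, was at 5.63 and 5.96 in mono-culture and 7.86 and 7.78 in co-culture, 4.06-fold higher (adjusted p = 0.00673), and Mfap2 at 4.85 and 4.54 in mono-culture and 6.56 and 6.53 in co-culture, at least 1.99-fold higher (adjusted p = 0.00739). For these 4 the distance between the groups was several times that within them. Pdgfb, a growth factor for pericytes and fibroblasts, was at 6.92 and 7.42 in mono-culture and 8.96 and 8.89 in co-culture and rose 3.38-fold (adjusted p = 0.0161).

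Metal-handling genes were among the rises. Mt4, a metallothionein, was at 5.51 and 5.02 in mono-culture and 6.55 and 6.71 in co-culture, and rose at least 2.11-fold (adjusted p = 0.0101). Slc30a1, which exports zinc, was at 5.54 and 5.27 in mono-culture and 6.55 and 6.66 in co-culture, at least 2.07-fold higher (adjusted p = 0.0185). The more abundant metallothioneins Mt1 at 14.38 and 14.45 in mono-culture and 14.65 and 14.63 in co-culture and Mt2 at 7.70 and 7.77 in mono-culture and 8.04 and 7.99 in co-culture were higher on both arrays by 0.23 and 0.28 and did not pass (adjusted p = 0.465 and 0.342). Mt1 and Mt2 were looked up after the values of Mt4 were seen.

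Kinases, a cadherin and transcription factors were also among the rises. Dapk2, a death-associated kinase, rose 3.14-fold from 4.75 and 5.55 to 6.71 and 6.89, with the mono-culture arrays well apart from each other. It was detected on 1 of these 2 mono-culture arrays. Nuak2, a kinase induced by YAP that was detected on 1 of the 2 mono-culture arrays, rose 2.22-fold. Ulk4, a pseudokinase of the ULK family, rose 2.15-fold. Cdh6, a cadherin of neural crest and kidney, rose 2.29-fold from 7.34 and 6.68 to 8.39 and 8.02. Skil rose 2.10-fold from 8.60 and 8.91 to 9.77 and 9.87, and Snai1, a repressor of E-cadherin, 2.03-fold from 7.03 and 6.97 to 7.96 and 8.09. Snai1 was the only 1 of 15 EMT transcription factors that passed (6.67%, against 0.625% of all genes called higher). Scx, a tendon transcription factor, rose 1.77-fold, and Ets2 1.62-fold.

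Acsbg1, a fatty acyl-CoA ligase of brain and testis, rose at least 2.38-fold, Csn3, kappa-casein, at least 1.64-fold, and Mgarp, a mitochondrial transport protein induced by hypoxia, 2.72-fold. Sdcbp2, syntenin 2, rose at least 1.50-fold, Gvin1, a large interferon-inducible GTPase, at least 1.48-fold, and Ctsw, a cathepsin of cytotoxic lymphocytes, at least 1.21-fold, all from levels not detected in mono-culture. Tgm2, detected on 1 of the 2 mono-culture arrays, rose 2.36-fold from 5.38 and 5.63 to 6.75 and 6.74, and Hbegf, a ligand of EGFR, 2.16-fold. The others that rose were Lsp1, Prss22, Atg4d, Junb, Endod1, Ctcfl, Samd7, Fah, Errfi1, Fam193b, Stx1a, Erfe, Hipk2, AA467197, Cadps, Lrrk2, Mapk11, Apbb2, Porcn and Dcaf10, with differences from 0.63 to 1.06. Fah, the last enzyme of tyrosine breakdown, went from 8.51 and 8.41 to 9.39 and 9.24, and Porcn, which lipidates Wnt proteins for secretion, from 7.44 and 7.62 to 8.11 and 8.25. Lrrk2, a kinase of endolysosomal membranes, went from 7.46 and 7.41 to 8.16 and 8.08.

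**Figure D4:**
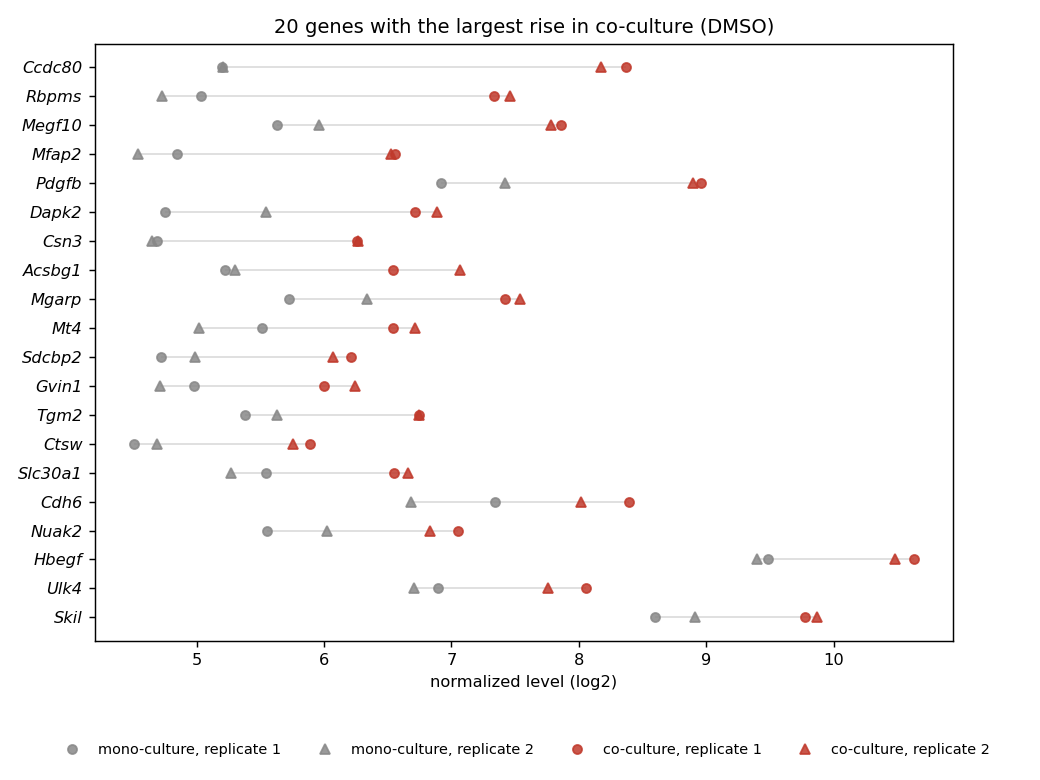
Each row is 1 of the 20 genes with the largest rise among those called, with the normalized level (x, log2) on the 2 mono-culture arrays in grey and the 2 co-culture arrays in red; circles are replicate 1 and triangles replicate 2. Both red marks lie right of both grey marks in every row because the selection required it, and for Ccdc80, Rbpms and Mfap2 the grey marks lie near the dim end of the scale.

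The same contrast was available in the 4 arrays with PLX4720, which share no array with the DMSO comparison, only its normalization and spread. Of the 76 genes lower in DMSO, 61 had a negative difference there, against 48.8% of all genes, 46 had groups that did not overlap with co-culture lower, against 26.8%, and 23 were called lower, against 3.47% of all genes. Of the 46 that rose, 34 had a positive difference, against 51.2%, and 18 were called higher, against 3.89%. The medians there were -0.40 and 0.33. Since the genes were chosen for their differences in DMSO, these medians are not set against those in DMSO. Of the genes that fell 7, and of those that rose 8, were not detected on any PLX4720 array. Among the falls that passed in both, Cdsn was at -1.32 in PLX4720 (adjusted p = 0.0132), Cox6a2 at -1.58 (adjusted p = 0.00854), Kitl at -1.13 (adjusted p = 0.00662), Vldlr at -1.03 (adjusted p = 0.00983) and Dbp at -1.05 (adjusted p = 0.0158). Rbpms, which was not detected in either mono-culture, was at least 3.46-fold higher in PLX4720 (adjusted p = 7.31e-05).

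Others of the strong falls did not pass there, with Gsta1 at a bound of 1.92-fold lower (adjusted p = 0.0845), Gsta2 detected on 1 of the 4 arrays (adjusted p = 0.496), Nqo1 at -0.58 (adjusted p = 0.158) and Acta2 at -0.19 (adjusted p = 0.767). The median of the NRF2 list was -0.25 in PLX4720, where Slc7a11, Gstm1 (-0.92) and Sqstm1 (-0.86) were called lower. Slc7a11 was detected on 1 PLX4720 array and had a bound of only 1.01-fold there. The difference between the 2 effects was itself tested, and 9 of 7357 genes passed (0.122%), of which 5 were among the genes called in DMSO, namely Atg4d, Csn3, H3c7, Samd7 and Ulk4, of which Atg4d, Csn3 and Samd7 were not detected on any PLX4720 array. For Gsta1 (adjusted p = 0.105), Nqo1 (adjusted p = 0.0928) and Acta2 (adjusted p = 0.0834) that test did not pass, so a different response with the drug was not shown for them.

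**Figure D5:**
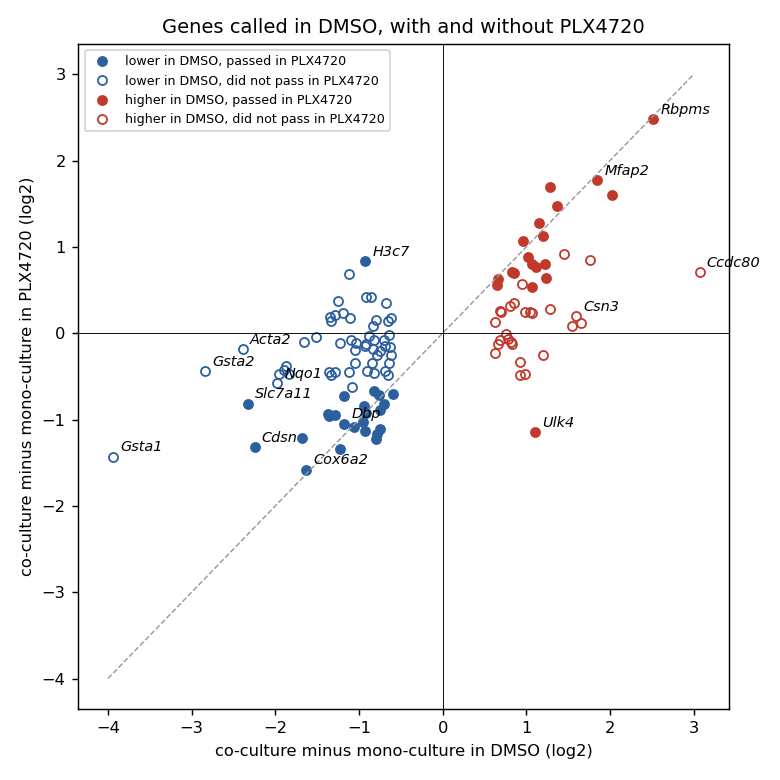
Each point is 1 of the 122 genes called in DMSO, placed by its co-culture minus mono-culture difference in DMSO (x, log2) and in PLX4720 (y, log2), with genes lower in DMSO in blue and higher in red; filled points also passed in PLX4720, and the dashed line marks equal differences. Of the blue points 61 of 76 lie below 0 on the y axis, and genes not detected in a group are drawn at their fitted differences, which are no bounds.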

How the data were processed

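Total RNA of 5555-mEGFP cells was measured on Illumina mouse BeadChips, with 4 groups of 2 arrays. The authors deposited mean bead intensities, not normalized, with a detection p-value per probe and array against the negative controls, and a table of log2 values, and the submitters' processing notes list lumi, with no version given. The deposited log2 table matched quantile normalization of those intensities with no background removed. From the intensities, background correction and quantile normalization were done with neqc of limma 3.58.1 in R 4.3.3 (offset 16). Probes had to reach a detection p below 0.01 on 2 or more of the 8 arrays, and 10660 of 25697 did. A single gene symbol was given for 23978 probes and none for 1719. The brightest probe stood for each of 7357 genes. A limma model of group means (lmFit, eBayes) took in all 8 arrays, with Benjamini-Hochberg adjustment over all genes and a threshold of 0.05. Folds of genes not detected in 1 group are bounds against the lowest detected signal.

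Arrays were grouped by their titles. Described in the text are the 30 largest falls and 20 largest rises among called genes, and the called members and the 4 members of lowest p, or fewer, of a gene list; other genes were chosen after their values were seen. The members and the 55 lists were chosen with earlier results of these data known. Promoters are RefSeq sequences of GRCm38.p6, with windows for 6068 of the genes tested. The test was tried on simulated data first. The alternatives covered background, normalization, filter, probe choice, a replicate block, the arrays fitted, weights, the prior, leaving out single arrays, and the methods' t-test.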

Additional observations from a re-analysis of the deposited data

Results flagged for a closer look

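For 5 of the genes called in DMSO, the difference between the co-culture effect without the drug and with PLX4720 passed the test of that difference (limma, adjusted over 7357 genes). Ulk4, a pseudokinase of the ULK family, was 2.15-fold higher in co-culture in DMSO, and in PLX4720 its levels were 7.80 and 7.82 in mono-culture and 6.69 and 6.65 in co-culture, so that the effects differed by 2.25 on the log2 scale (adjusted p = 0.00285). The co-culture arrays were above the mono-culture arrays in DMSO and below them in PLX4720, without overlap in either, and both differences passed. H3c7, a replication-dependent histone gene, went from 6.55 and 6.43 to 5.46 and 5.68 in DMSO and was at 5.12 and 5.68 in mono-culture and 6.23 and 6.24 in co-culture in PLX4720, a difference of effects of -1.76 (adjusted p = 0.0478). Both of its differences passed as well, in opposite directions.

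Csn3, kappa-casein, differed by 1.40 (adjusted p = 0.0164). Atg4d, a protease of the autophagy protein ATG8, differed by 1.46 (adjusted p = 0.0287). Samd7, a Polycomb-associated protein known from photoreceptors, differed by 1.25 (adjusted p = 0.0287). These 3 were detected only on the 2 co-culture arrays in DMSO, through which they entered the test, and on none of the 4 PLX4720 arrays. Their differences of effects therefore rest on background values, and bounds of 1.64-fold, 1.42-fold and 1.12-fold for the rise in DMSO are all that was measured.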

How the results depend on the processing

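No gene called in DMSO changed sign under any of the alternatives, but the number of calls moved. Against 46 genes higher and 76 lower, both log2 values without background subtraction and the authors' log2 values gave 97 higher and 113 lower, of which 38 and 56 were shared, so that 8 and 20 calls were lost, normexp with an offset of 50 gave 92 and 106, array weights 113 and 131, a trended and robust prior 96 and 121, and the 4 DMSO arrays alone 71 and 83. Without a filter on dim probes, where 16593 genes were tested, 29 and 36 passed. The methods' t-test, with the spread of each gene taken alone, gave 0 and 0 after adjustment and 440 and 431 at an unadjusted p under 0.05. Median scaling gave 34 and 82. The mean of a gene's probes gave 48 and 65, with 2 and 13 calls lost. With each array left out in turn, the higher calls ranged from 7 to 65 and the lower calls from 10 to 76. Without mono-culture replicate 1 of DMSO 24 and 29 passed and without replicate 2 of it 28 and 51, and without either PLX4720 co-culture array 39 and 57. With the replicate number as a block 43 and 73 passed, 41 and 68 of them shared with the fit without it. The numbers did not pair the arrays, with correlations of deviations from -0.08 to 0.09 between groups.

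These arrays limit what can be seen. A group holds 2 arrays, the spread is borrowed from all 8, and detected probes had a median signal of only 3.26 to 3.89 times background. Of the falling genes 34 and of the rising genes 17 passed in none of the 4 settings that left out a DMSO array. Genes not detected on either array of a group have lower bounds in place of folds. Gsta1, Clec4d, Pmp22, H3c7 and Col3a1 were detected on 1 of the 2 co-culture arrays, and Dapk2, Nuak2 and Tgm2 on 1 of the 2 mono-culture arrays. Their folds are fitted values that take in an array without detection.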

Other observations

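The arrays of the mono-culture were less alike than those of the co-culture. The median SD between replicates was 0.11 in mono-culture and 0.08 in co-culture over all genes tested, and 0.17 and 0.08 over the 76 genes that fell. Of these 76, 52 were higher on replicate 1 of the mono-culture (68.4%, against 46.6% of all genes), and the other group held Acta2, Cdsn, Ccdc144b, Dbp and Scara5.

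Of 14 CCN and YAP target genes, which respond to cell contact and tension, Nuak2 alone passed (7.14%, against 0.625% of all genes called higher). A difference above 0 was found in 12, against 51.9% of all genes tested, and the median was 0.38. Ankrd1 was at 9.87 and 10.11 in mono-culture and 10.69 and 10.67 in co-culture (adjusted p = 0.286), Ccn1 at 7.38 and 7.61 in mono-culture and 8.46 and 8.44 in co-culture (adjusted p = 0.249) and Ccn2 at 11.49 and 11.33 in mono-culture and 12.01 and 12.01 in co-culture (adjusted p = 0.39). Ccn5, which lacks a domain that other members of its family carry, had the opposite sign, -0.48 (adjusted p = 0.177). Tfrc, the transferrin receptor, had a difference of 0.77 in DMSO (adjusted p = 0.105) and had a larger difference in PLX4720, 1.84 (adjusted p = 0.00395), and the test of that difference did not pass (adjusted p = 0.124).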
